A study of Homo sapiens with 10 samples.

Results

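The 9 genes described here are reported targets of HSF1, the transcription factor that drives the response to heat, that lie outside the classical chaperone families: ZFAND2A, DEDD2, JMJD6, SLC5A3, IER5, ARC, UBB, SERPINH1 and MRPL18. They were chosen by name, and each matched exactly 1 of the 63187 genes in the count table. All 9 passed the filter on low counts, as did 17290 genes in all. SERPINH1 is better known as HSP47 and is itself a chaperone, specific for collagen in the endoplasmic reticulum, so that the description as non-chaperone does not hold for it. ARC did not rise with heat in these cells, as described below.

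RNA came from U2OS, an established line of human osteosarcoma cells, and the 6 libraries form 3 groups of 2: control knockdown cells that were not heat shocked (siCtrl NHS), control knockdown cells after heat shock (siCtrl HS), and heat-shocked cells with knockdown of YTHDC1 (siYTHDC1 HS). YTHDC1 is the nuclear protein that binds N6-methyladenosine, a methylated base of RNA. The sample titles name the reagents sh and the descriptions name them si, so the type of knockdown reagent is uncertain. The sources used here do not give the temperature, length or recovery of the heat shock, and no library of unheated YTHDC1 knockdown cells enters the comparisons. A further 4 libraries of methylated RNA immunoprecipitation were not analysed here. Separate cultures are not named in the labels, and the p-values therefore reflect the spread of these libraries alone, which may be technical.

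HSF1 is held inactive in unstressed cells, in part by chaperones. When proteins misfold, HSF1 forms trimers, enters or stays in the nucleus and binds heat shock elements, which are alternating repeats of the bases GAA and TTC. Its best known targets are chaperones. Other targets act on ubiquitin and the proteasome, on collagen folding, on cell death, on RNA and chromatin, on small-molecule transport and on translation.

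Heat shock elements were looked for in the promoters that RefSeq gives on GRCh38.p14, from 250 bases before to 50 bases after each start site. Promoters were matched by symbol for 7 of the 9 genes, in 12 windows; JMJD6 and ARC had no entry. The motif of 3 units was GAA, any 2 bases, TTC, any 2 bases and GAA, on either strand. The motif of 2 units was GAA, any 2 bases and TTC, or TTC, any 2 bases and GAA, each of which reads the same on both strands. A 3-unit match contains overlapping 2-unit matches. The 3-unit motif was present in 1 of the 7 genes, SERPINH1, and in 0.608% of the 27305 genes in the promoter table. The 2-unit motif was present in 4 of the 7 genes (SERPINH1, ZFAND2A, IER5 and MRPL18) and in 16.2% of all genes. It was not found in these windows of DEDD2, SLC5A3 and UBB, which says only that these letters are not there. Among 25 chaperone genes known as HSF1 targets, 8 had the 3-unit motif and 18 had the 2-unit motif.

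The promoters of SERPINH1, ZFAND2A and IER5 are shown because they hold a match before the start site, and a short stretch of MRPL18 is shown for its match. Each is written 5′ to 3′ on the strand of the gene, with the matching bases in capitals. The SERPINH1 stretch is chr11:75562003-75562252 on the plus strand, where the 3-unit match runs from 76 to 64 bases before the start site. The ZFAND2A stretch is chr7:1160197-1160446 on the minus strand, where the match runs from 171 to 164 bases before the start site. The IER5 stretch is chr1:181088450-181088699 on the plus strand, where the match runs from 226 to 219 bases before the start site. The MRPL18 stretch is chr6:159789816-159789843 on the plus strand, and the match in it lies 41 to 34 bases before one annotated start site and after another. A second 2-unit match of MRPL18, at chr6:159789878-159789885, starts 12 bases after the former start site and is not shown.
SERPINH1: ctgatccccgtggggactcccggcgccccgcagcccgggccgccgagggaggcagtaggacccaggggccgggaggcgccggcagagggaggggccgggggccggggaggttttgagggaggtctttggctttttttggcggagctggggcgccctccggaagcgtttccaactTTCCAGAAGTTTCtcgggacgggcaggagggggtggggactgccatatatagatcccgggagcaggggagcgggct
ZFAND2A: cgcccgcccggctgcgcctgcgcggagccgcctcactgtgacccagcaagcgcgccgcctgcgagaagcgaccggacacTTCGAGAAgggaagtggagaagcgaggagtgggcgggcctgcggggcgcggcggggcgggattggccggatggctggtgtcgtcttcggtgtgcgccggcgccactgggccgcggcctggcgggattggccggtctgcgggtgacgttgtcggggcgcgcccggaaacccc
IER5: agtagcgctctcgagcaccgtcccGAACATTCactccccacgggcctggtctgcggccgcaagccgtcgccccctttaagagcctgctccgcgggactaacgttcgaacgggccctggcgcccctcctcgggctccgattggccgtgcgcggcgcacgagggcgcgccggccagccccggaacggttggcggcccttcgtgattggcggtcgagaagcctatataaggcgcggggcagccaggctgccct
MRPL18: ggaagaggttGAACCTTCgcctcaaacg

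Library totals ran from 13252370 to 15500743 counts. Levels below are CPM, the counts scaled to a common library size, and changes are log2 fold changes of the edgeR quasi-likelihood fit with their standard error (SE), n = 2 libraries per group. Adjusted p-values are edgeR's after Benjamini-Hochberg adjustment over the 17290 genes, and a gene is said to rise or fall only where this value was under 0.05. The targeted gene, YTHDC1, read 268 and 258 CPM in controls after heat against 121 and 118 CPM in knockdown cells (log2 fold change -1.14 ± 0.05 SE, adjusted p = 2.66e-15). Of 8 genes of mesenchymal and bone-forming cells, none was at 0, and their summed level was between 5575 and 6524 CPM of all counts in every library. Of 11 markers of epithelial, blood, endothelial and liver cells, CD3E and HBB were among those at 0 throughout, and the summed level was 13.9 CPM in both unheated, 13.2 to 16.5 CPM in heat-shocked control and 38.4 CPM in both knockdown libraries. In such bulk RNA, fewer cells of a type and less RNA per cell cannot be told apart.

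Heat shock of control cells raised 8 of the 9 genes and lowered ARC. The rises ran from 2.07-fold for UBB to 24-fold for ZFAND2A, and in each of the 8 genes both heat-shocked libraries lay above both unheated ones. Both libraries lay above both unheated ones in 33.4% of all tested genes and below them in 38.8%. Over all tested genes 20.6% were called higher and 23.3% lower in this comparison, 43.9% together, and 5.82% were called at least 2-fold higher, as the 8 genes were. The median log2 fold change of the 9 genes was 1.76, against -0.03 over all genes. The genes were chosen as HSF1 targets with earlier results of these data known, so the count describes them and is not independent support. With library size alone as the scaling, 36.5% rather than 46.9% of all calls were higher, and the 8 genes were still called higher, but UBB then lay below 2-fold (log2 fold change 0.98 against 1.05).

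ZFAND2A and UBB serve the disposal of damaged proteins. ZFAND2A, also called AIRAP, is a stress-induced zinc finger protein that binds the proteasome (ENSG00000178381, chromosome 7, 1148850 to 1160196, minus strand, on GRCh38.p14). Unheated, it read 17.7 and 18.9 CPM; after heat the controls read 451 and 428 CPM and the knockdown libraries 429 and 392 CPM. Its change with heat was the largest of the 9 (log2 fold change 4.58 ± 0.07, adjusted p = 3.94e-25), and it ranked 43 from the top of all tested genes. The knockdown libraries overlapped the heat-shocked controls.

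UBB, a polyubiquitin gene whose product is cut into single ubiquitin units (ENSG00000170315, chromosome 17, 16380779 to 16382745, plus strand), read 504 and 499.6 CPM without heat. Heat took the controls to 1028 and 1044 CPM, and the knockdown libraries read 1093 and 1188 CPM. The 3 groups did not overlap. The rise with heat had a log2 fold change of 1.05 ± 0.05 (adjusted p = 3.71e-15), the smallest of the 8.

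SERPINH1 encodes the collagen chaperone of the endoplasmic reticulum (ENSG00000149257, chromosome 11, 75562253 to 75572783, plus strand). Its libraries read 390 and 397 CPM without heat, 2538 and 2546 CPM after heat, and 1776 and 1855 CPM after heat in the knockdown. The groups did not overlap, and the knockdown libraries lay between the others. The rise with heat was 6.46-fold (log2 fold change 2.69 ± 0.05, adjusted p = 2.85e-23).

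DEDD2, JMJD6, IER5 and ARC encode mostly nuclear or signalling proteins. DEDD2, a protein with a death effector domain, the fold by which apoptosis adaptors and caspases bind each other (ENSG00000160570, chromosome 19, 42198598 to 42220134, minus strand), was at 21.6 and 21.5 CPM without heat. After heat the controls read 199.8 and 211 CPM and the knockdown libraries 197 and 205 CPM, so these groups overlapped. Its rise with heat was 9.51-fold (log2 fold change 3.25 ± 0.06, adjusted p = 1.07e-22).

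JMJD6 is a nuclear hydroxylase of the Jumonji family that modifies lysines of splicing factors (ENSG00000070495, chromosome 17, 76712836 to 76726606, minus strand). Without heat JMJD6 read 69.4 and 67.5 CPM, against 354 and 364 CPM in controls after heat and 385 and 376 CPM in knockdown cells. The groups did not overlap. The log2 fold change with heat was 2.39 ± 0.05 (adjusted p = 7.02e-22).

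IER5, an immediate early gene whose protein recruits a phosphatase to HSF1 (ENSG00000162783, chromosome 1, 181088700 to 181092900, plus strand), read 105 and 103 CPM without heat. The controls reached 348 and 357 CPM with heat, and the knockdown libraries 522 and 577 CPM. The 3 groups were separate and rose in that order. The rise with heat had a log2 fold change of 1.76 ± 0.05 (adjusted p = 1.08e-18).

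ARC, an immediate early gene best known for forming capsid-like particles in neurons (ENSG00000198576, chromosome 8, 142611049 to 142614479, minus strand), went the other way. It was at 71.8 and 71.3 CPM without heat, 62.6 and 63.4 CPM after heat, and 113 and 123 CPM after heat in the knockdown. The groups did not overlap, with the heat-shocked controls lowest and the knockdown highest. The fall with heat was small (log2 fold change -0.18 ± 0.06, adjusted p = 0.0151). That call was lost with the DESeq2 Wald test (adjusted p = 0.132) and without unheated replicate 1 (0.0818), unheated replicate 2 (0.0582), heat-shocked control replicate 1 (0.0662) or heat-shocked control replicate 2 (0.0502).

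SLC5A3 and MRPL18 stand for transport and translation. SLC5A3, the sodium-coupled myo-inositol transporter that loads cells with this osmolyte (ENSG00000198743, chromosome 21, 34073578 to 34106260, plus strand), read 92 and 94.1 CPM without heat. With heat the controls read 317 and 304 CPM, but the knockdown libraries only 194 and 195 CPM. The knockdown libraries lay between the other groups without overlap. The rise with heat was 3.34-fold (log2 fold change 1.74 ± 0.05, adjusted p = 2.35e-19).

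MRPL18 encodes a protein of the large mitochondrial ribosomal subunit, which has also been reported to join cytosolic ribosomes under stress (ENSG00000112110, chromosome 6, 159789812 to 159798429, plus strand). Its libraries read 69.8 and 70.1 CPM without heat, 234 and 229 CPM after heat, and 265 and 260 CPM after heat in the knockdown. The 3 groups did not overlap. The log2 fold change with heat was 1.73 ± 0.05 (adjusted p = 4.36e-19).

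**Figure D1:**
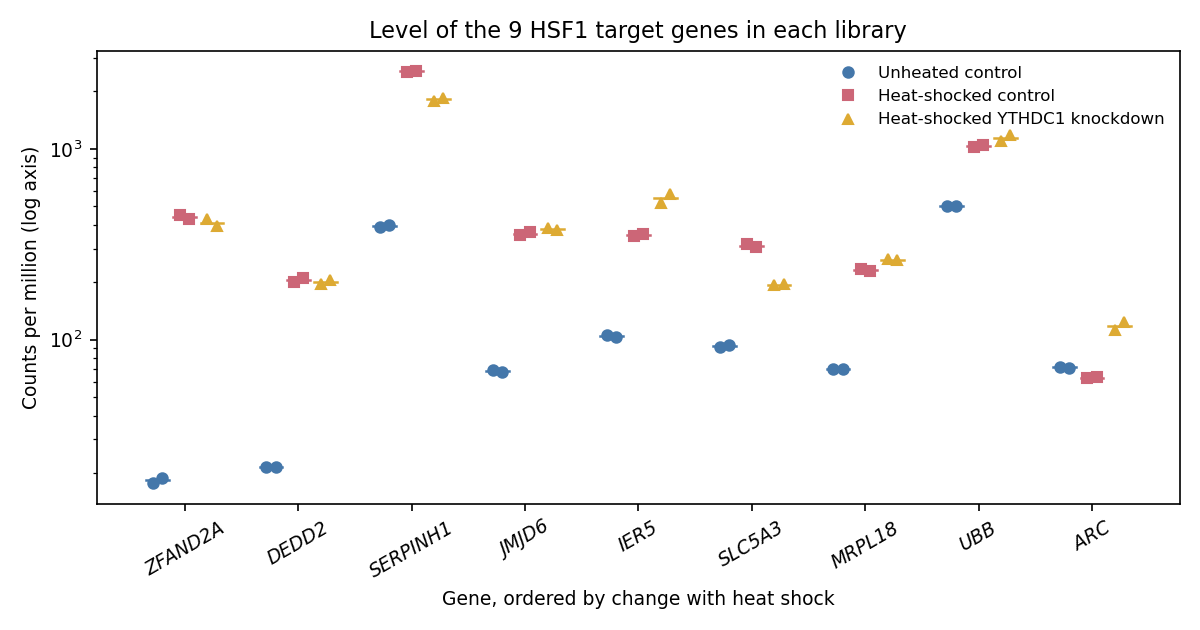
CPM on a log axis for the 9 genes, ordered by their change with heat shock; circles are unheated controls, squares heat-shocked controls and triangles heat-shocked YTHDC1 knockdown, with 1 point per library and a short line at the mean of the 2. ZFAND2A goes from 17.7 and 18.9 to 451 and 428 CPM with heat, ARC is at 62.6 and 63.4 CPM after heat against 71.8 and 71.3 CPM before, and SLC5A3 and SERPINH1 are lower in the knockdown than in heat-shocked controls.

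By the 95% intervals of the fit, the changes with heat fell in a clear order at the top and overlapped in the middle. ZFAND2A, DEDD2, SERPINH1 and JMJD6 came in that order with no overlap between neighbours. IER5, SLC5A3 and MRPL18 followed with overlapping intervals, between 1.63 and 1.87 on the log2 scale together. UBB and ARC stood apart below them. Levels between genes were compared per length, as TPM, a length-scaled share of transcripts, from the deposited gene lengths, and gave another order. In unheated controls UBB led at 1171 ± 5.78 TPM (SD, n = 2), followed by SERPINH1 at 229 ± 5.61 TPM, and DEDD2, SLC5A3 and ZFAND2A overlapped at the bottom near 29.4 to 30 TPM. After heat ZFAND2A had moved from the lowest place to the third, at 680 ± 26.8 TPM, behind UBB at 2334 ± 22.6 and SERPINH1 at 1429 ± 0.881 TPM. ARC was then the lowest, at 74.3 ± 0.511 TPM.

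The knockdown of YTHDC1 in heat-shocked cells split the 9 genes. ARC, IER5, MRPL18 and UBB were higher than in heat-shocked controls, SLC5A3 and SERPINH1 were lower, and ZFAND2A, DEDD2 and JMJD6 did not pass the test. Over all genes 27.4% were called higher and 27.2% lower, 54.5% together, so that 6 of 9 called is a share near that of all genes. The libraries of the 2 groups overlapped for ZFAND2A and DEDD2 alone among the 9, and over all genes they were separate and higher in 37.8% and separate and lower in 38.1%. Among the genes that were higher, ARC rose most (log2 fold change 0.91 ± 0.06, 1.87-fold, adjusted p = 2.93e-12), followed by IER5 (0.64 ± 0.05, 1.56-fold, adjusted p = 4.70e-11). MRPL18 rose by 0.18 ± 0.04 (adjusted p = 0.00117). UBB rose by 0.14 ± 0.05 (adjusted p = 0.0125), a call lost when the first heat-shocked control (adjusted p = 0.0793) or the second knockdown library (0.131) was left out. The intervals of MRPL18, UBB and JMJD6 overlapped each other in turn.

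SLC5A3 fell by 0.68 on the log2 scale (SE 0.05, adjusted p = 7.01e-12) and SERPINH1 fell by 0.49 (SE 0.04, adjusted p = 1.44e-09), and both libraries of the knockdown lay below both of the control for each gene. ZFAND2A was at a log2 fold change of -0.10, with a 95% interval from -0.20 to -0.0008 and an adjusted p of 0.0822. Leaving out the second heat-shocked control (adjusted p = 0.0417) or the first knockdown library (0.00114) gave a call as lower. DEDD2 was at -0.03, with an interval from -0.13 to 0.06 (adjusted p = 0.577). JMJD6 was at 0.08, with an interval from -0.01 to 0.17 (adjusted p = 0.112), and was called higher without knockdown replicate 2 (0.0497). In the same comparison 4 of the 6 tested markers of other cell types were higher and 1 was lower in the knockdown. The shares over all genes were 27.4% and 27.2%. EPCAM, among those higher, went from 6.23 and 4.66 CPM to 20 and 20.5 CPM. The part of these markers in the changes of the 9 genes was not tested.

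**Figure D2:**
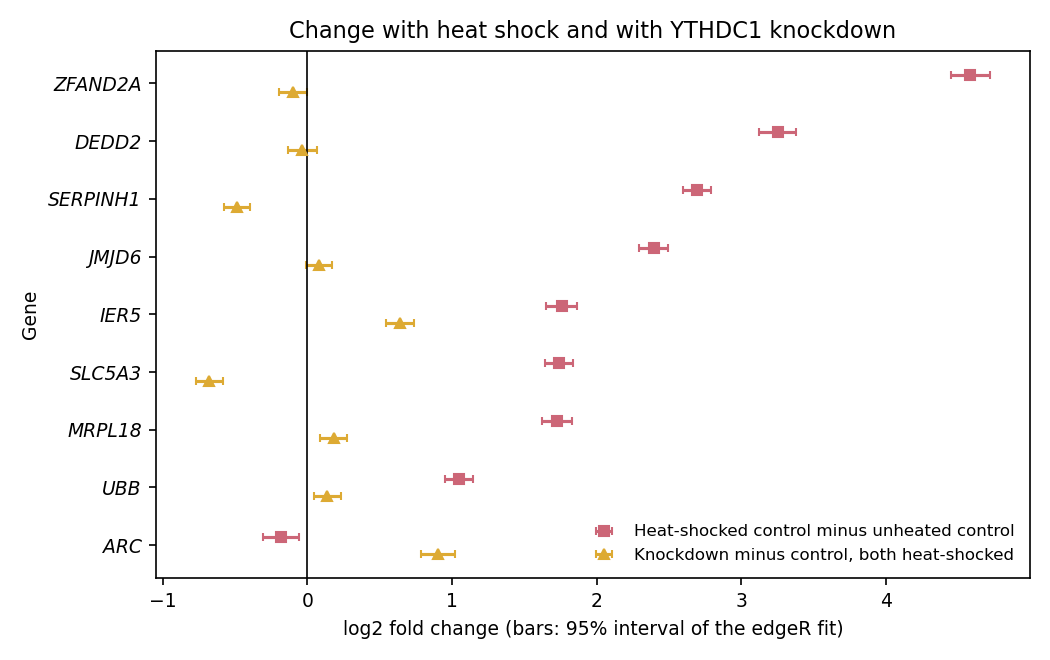
The log2 fold change of each gene with heat shock (squares, heat-shocked minus unheated control) and with YTHDC1 knockdown (triangles, knockdown minus control, both heat-shocked), with bars for the 95% interval of the edgeR fit. The squares run from 4.58 for ZFAND2A to -0.18 for ARC, whereas the triangles lie between -0.68 for SLC5A3 and 0.91 for ARC.

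Against unheated controls all 9 genes were higher in the heat-shocked knockdown, where 31.1% of all genes were called higher and 31.1% lower, 62.2% together. For none of the 9 did the libraries overlap, and over all genes they were separate and higher in 40.1% and separate and lower in 40%. ZFAND2A was 22.4-fold, DEDD2 9.3-fold, JMJD6 5.56-fold, IER5 5.28-fold, SERPINH1 4.61-fold, MRPL18 3.75-fold, UBB 2.27-fold, SLC5A3 2.09-fold and ARC 1.65-fold higher. This comparison shares its libraries with each of the other comparisons, so its values are given beside them and not as a further result. For the 8 genes that rose, the difference in CPM from unheated controls was set against that of control cells, as a description with no test. SLC5A3 had 46.6% ± 0.28 (SD, n = 2 knockdown libraries) of the rise of control cells and SERPINH1 66.2% ± 2.58. ZFAND2A had 93% ± 6.2, DEDD2 97.5% ± 3.11 and JMJD6 107% ± 2.21. MRPL18 reached 119% ± 2.37, UBB 120% ± 12.5 and IER5 180% ± 15.5. The median was 102%. The SD covers the knockdown libraries alone, with the means of both control groups held fixed. The share of SLC5A3 was 48% without heat-shocked control replicate 1 and 45.2% without heat-shocked control replicate 2. Because unheated knockdown cells were not measured here, a change of the starting level and a change of the rise cannot be told apart.

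**Figure D3:**
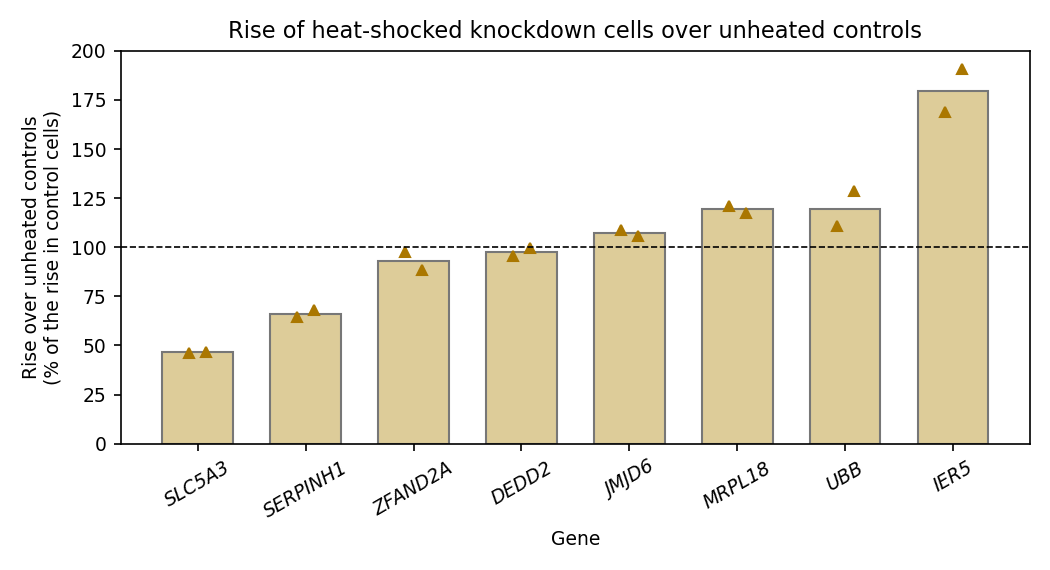
Bars give the mean difference in CPM between heat-shocked knockdown cells and unheated controls, as a percentage of the same difference in control cells, for the 8 genes that rose; triangles are the 2 knockdown libraries and the dashed line marks 100%. SLC5A3 and SERPINH1 lie farthest below the line and IER5 farthest above it; ZFAND2A and DEDD2 also lie below it, and JMJD6, MRPL18 and UBB above it, in both libraries.

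The rest of the HSF1 pathway gave the setting for these values. HSF1 itself read 155 and 150 CPM without heat, 146 and 148 CPM in controls after heat, and 175 and 181 CPM in knockdown cells after heat. HSF1 was 0.27 ± 0.05 higher on the log2 scale in knockdown cells (adjusted p = 2.92e-05), and with heat it was at -0.05 (adjusted p = 0.396), with a call as lower when library size alone was the scaling (-0.12, adjusted p = 0.0364). HSF2, a related factor that can pair with HSF1, fell with heat by 0.67 and rose in the knockdown by 0.69. Of 27 chaperone genes listed as HSF1 targets 26 were tested, and all 26 rose with heat, where 20.6% of all genes did, with a median log2 fold change of 2.203. In the knockdown 15 of them fell, 3 rose and 8 did not pass, with a median of -0.16, against 27.2% lower and 27.4% higher over all genes. Without knockdown replicate 2, 5 rather than 3 of them rose. Of 4 other targets outside both lists, RGS2, a regulator of G protein signalling, had the largest rise with heat at 3.75, and the autophagy receptor SQSTM1 fell by 0.24.

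Relatives of the 9 genes showed which part of each family moved. ZFAND2A was at 4.58 with heat, while the other 6 AN1 zinc finger genes lay between -0.15 and 0.66, with ZFAND3 highest. ZFAND2B, the nearest paralog by name and also a proteasome-associated protein, was at 0.18 with heat (adjusted p = 0.13) and rose by 0.61 in the knockdown. DEDD2 was at 3.25, while the other 6 genes with a death effector domain ran from -1.27 for FADD, the adaptor of death receptors, to 0.91 for PEA15. CFLAR, which blocks caspase-8, fell by 0.67 in the knockdown.

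Compared with UBB at 1.05, RPS27A, in which ubiquitin is fused to a ribosomal protein, was at 0.11 with heat. The call of RPS27A depended on the setting: its adjusted p was 0.0512, and it was called higher with DESeq2 (0.0442), with RLE scaling (0.0309), in the fit of only the 2 groups (0.00185), and when the second heat-shocked control (0.0185) or either knockdown library (0.0147 and 0.00986) was left out. Reads of UBB and its near-identical copies can be hard to assign, because the ubiquitin units repeat and the handling of reads with several matches is not given. UBBP4, the only UBB pseudogene that passed the filter, was at 9.21 to 12.2 CPM in the control libraries.

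IER5 rose while its relatives did not. IER3 fell by 1.85 with heat and IER5L by 0.72, and IER2 was at -0.14 (adjusted p = 0.0602). Scaling by library size alone called IER2 lower (adjusted p = 0.00559), as did leaving out either knockdown library (0.0365 and 0.0371). In the knockdown IER2 rose by 0.50. MRPL18 was at 1.73 with heat while the other 47 tested genes named MRPL lay between -0.58 for MRPL15 and 0.52 for MRPL38. Of those 47, 5 rose, 7 fell and 35 did not pass, against 20.6% higher and 23.3% lower over all genes, and the median was -0.01. These counts moved with the setting: 12 of the list fell with library size alone and 4 with DESeq2. In the knockdown 9 of them rose and 18 fell, against 27.4% and 27.2% of all genes, with MRPL10 at 0.65 and MRPL45 at -1.22.

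SERPINH1 was compared with 18 other genes of collagen chains and collagen modification. With heat 7 rose and 2 fell, against 20.6% and 23.3% of all genes, and the median was 0.05. The falls were not stable, being 0 without unheated replicate 1 or heat-shocked control replicate 1 and 4 without knockdown replicate 1 or 2. The prolyl hydroxylase subunits P4HA2 and P4HA1, which modify collagen before it folds, rose by 1.37 and 1.00. COL1A1, the main chain of bone collagen, was at 1322 and 1333 CPM before and 1365 and 1425 CPM after heat (log2 fold change 0.07, adjusted p = 0.224), and a fit restricted to these 2 groups called it higher (adjusted p = 0.0202). In the knockdown, where SERPINH1 fell, COL1A1 rose by 0.42 and COL3A1 by 1.04, and CRTAP, part of the prolyl 3-hydroxylation complex, fell by 0.83.

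SLC5A3 belongs to the osmotic response, which the transcription factor NFAT5 controls in hypertonic cells. NFAT5 itself rose with heat by 1.06 and fell in the knockdown by 0.44, the same directions as SLC5A3. Whether NFAT5 acted on SLC5A3 here was not tested. The list of osmolyte transport held 8 other tested genes. With heat 2 of them rose and 2 fell, against 20.6% and 23.3% of all genes, with a median of 0.14. The count of falls was not stable. With DESeq2, RLE scaling, no filter, a fit of only the 2 groups compared or the replicate block, 1 rather than 2 fell. It also moved when a control library was left out. In the knockdown 1 rose, SLC2A13 by 0.67, and 5 fell, against 27.4% and 27.2% of all genes. The taurine transporter SLC6A6, another NFAT5 target, fell with heat by 0.72. Aldose reductase, AKR1B1, which makes the osmolyte sorbitol, fell in the knockdown by 1.28. Among the reported partners of JMJD6, the splicing factor U2AF2 was at 0.04 with heat (adjusted p = 0.442; -0.03 with library size alone) and fell by 0.15 in the knockdown.

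**Figure D4:**
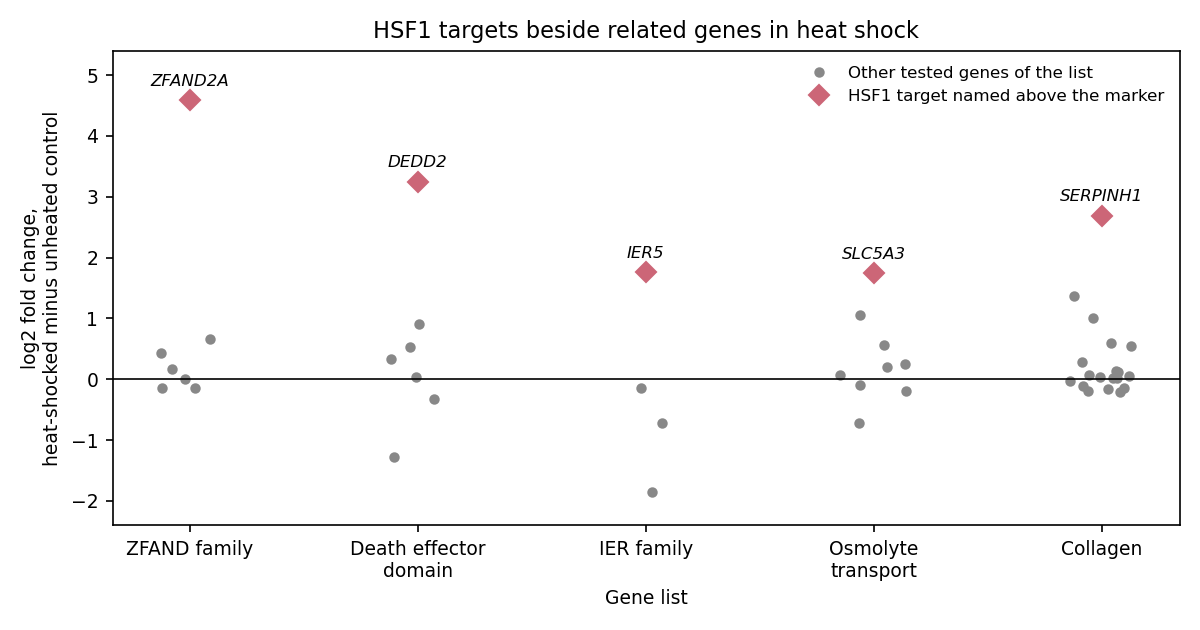
The log2 fold change with heat shock (heat-shocked minus unheated control) for 5 of the 9 genes (diamonds, named) and for the other tested genes of the list each belongs to (grey circles). ZFAND2A, DEDD2, IER5, SLC5A3 and SERPINH1 are each the highest point of their list.

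Neighbouring genes were listed where they overlapped one of the 9 or lay within 20 kb, by RefSeq positions on GRCh38.p14. The sources used here do not say whether counting used strand, so reads where genes overlap on opposite strands are uncertain. SLC5A3 lies within the span of MRPS6 (chromosome 21, 34073578 to 34143030, plus strand), a mitochondrial ribosomal protein gene with the same annotated start. Both lie on the plus strand, so reads in a stretch they share are uncertain with or without a strand setting. MRPS6 rose from 49.6 and 50 to 116 and 119 CPM with heat (log2 fold change 1.24), and was at 107 and 105 CPM in the knockdown. Its log2 fold change in the knockdown was -0.15 (adjusted p = 0.0174), against -0.68 for SLC5A3. DESeq2 did not make that call (0.104), nor was it made when the second heat-shocked control (0.0889) or the second knockdown library (0.0559) was left out.

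MRPL18 sits between TCP1, which encodes a subunit of the cytosolic chaperonin and starts 210 bases away in the opposite direction, and PNLDC1, which begins 1026 bases beyond its end on the same strand. All 3 rose with heat. TCP1 went from 398 and 399 to 753 and 771 CPM. PNLDC1, a poly(A)-specific ribonuclease of germ cells, went from 0.189 and 0.321 to 25.2 and 21.9 CPM. In the knockdown PNLDC1 was lower than in heat-shocked controls (12 and 13.4 CPM, log2 fold change -0.89, adjusted p = 6.65e-07), whereas MRPL18 was higher.

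The partners that start beside DEDD2 and ZFAND2A did not rise. ZNF526 starts 178 bases from DEDD2 in the opposite direction and fell from 23.1 and 23.6 to 13.5 and 13.1 CPM with heat (log2 fold change -0.81, adjusted p = 4.00e-07). ZFAND2A-DT, a divergent noncoding transcript 178 bases from ZFAND2A, was at 5.68 and 4.5 CPM before and 5.92 and 4.95 CPM after heat (log2 fold change 0.09, adjusted p = 0.723). POU2F2, on the other side of DEDD2, was at -0.24 with heat (adjusted p = 0.0994; called lower with library size alone, adjusted p = 0.0305) and fell in the knockdown, from 14.3 and 15.1 to 6.89 and 6.19 CPM. METTL23 overlaps the start of JMJD6 on the opposite strand and fell by 0.75 with heat, a call lost without unheated replicate 1 (adjusted p = 0.0582). SRSF2, the splicing factor gene beyond it, fell by 0.78 with heat. MXRA7, on the other side of JMJD6, was at -0.04 with heat (adjusted p = 0.705).

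For each of the 9 genes the most alike profiles were sought among 11553 other genes of at least 5 CPM, by the Euclidean distance of log2 CPM over the 6 libraries after each gene was centred on its own mean. These are descriptions, and with 6 libraries in 3 groups they rest mostly on the 2 group differences. DEDD2 lay nearest to the HSP40 gene DNAJB4 (distance 0.3) and to CGAS, the cytosolic DNA sensor (0.452). MRPL18 lay nearest to DNAJA1, another HSP40 gene (0.113). ZFAND2A lay nearest to HSPA7, an HSP70 pseudogene (0.497), and PLPPR5 (0.542), and JMJD6 to LINC01518 (0.159) and KLHL25 (0.192).

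SLC5A3 lay nearest to an unnamed transcript, ENSG00000290796 (0.131), and HIBCH, an enzyme of valine breakdown (0.153). SERPINH1 lay nearest to HLA-F-AS1 (0.258) and the homeobox gene MSX1 (0.31). IER5 lay nearest to LINC00839 (0.147). ARC lay nearest to ICMT (0.0842) and the splicing protein WBP11 (0.0938), and UBB to MTF1, the metal-responsive transcription factor (0.108), and METTL21A (0.109). WBP11 fell with heat by 0.20 and rose in the knockdown by 0.88, close to -0.18 and 0.91 for ARC.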

How the data were processed

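RNA-seq of U2OS cells was analysed from the deposited counts, which are whole-number reads per gene, not normalized. The submitters' processing notes list HISAT2 2.2.1, featureCounts 2.0.2 and Trim Galore 0.6.7 among their tools and GRCh38 as the build, with no role or order. The sources used here give no annotation, strand setting or handling of multi-mapping reads. The gene length, per the file headers, was used for TPM only.

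All 6 libraries entered 1 edgeR 4.0.16 fit (R 4.3.3; quasi-likelihood F test, robust, TMM, filterByExpr with a minimum count of 10, 3 residual degrees of freedom). The SE was the log2 fold change over the square root of F. The common coefficient of variation was 3.69%. Library pairs differed by more than sampling noise (chi-square per gene from 1.54 to 3.55), so none was counted as a copy. The fit was also run on simulated counts with 200 changed genes, far fewer than were called in these data. The outcome is not reported here and is not used as support. Genes without a symbol held 0.0602% to 0.0698% of counts.

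The 9 genes and the gene lists were chosen with earlier results of these data known. Besides the 9, YTHDC1 and HSF1, the text names the largest called rise and fall of each list at a mean of at least 5 CPM, neighbours within 20 kb, the 2 nearest profiles, and some further list genes chosen after their values were seen; some genes this rule covers are not reported here. Alternatives were RLE scaling, library size alone, DESeq2 1.42.0, no filter, only the 2 groups compared, no robust estimation, a replicate block, and each library left out.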

Additional observations from a re-analysis of the deposited data

How the results depend on the processing

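In 351 repeats of the 27 log2 fold changes of the 9 genes, none changed direction, 341 stayed on the same side of the threshold, 7 lost a call (ARC with heat, UBB in the knockdown) and 3 gained one (ZFAND2A and JMJD6 in the knockdown). The number of the 9 called lower with heat was 0 with DESeq2 and 0 to 1 when a library was left out, and all genes lower with heat were 2514 with DESeq2 against 4033. The median share of the heat-shock rise in the knockdown was 104% with library size alone, 102% with RLE, and 101% to 105% with a library left out. With 2 rather than 3 motif units the share of genes with a heat shock element was 57.1% against 14.3%. Where a library was left out, the remaining library of that group is assumed to vary like the other groups. Reversed signs were of genes near 0: with heat UBBP4 (-0.03 to 0.31 over left-out libraries), U2AF2 (-0.026 with library size alone) and ZFAND2A-DT (-0.073 to 0.266, likewise); the cause was not tested.

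With the replicate block, 8 of the 9 genes were higher and 1 lower with heat, and 4 higher and 2 lower in the knockdown, as without it. Same-numbered libraries share only a number: their deviations correlated at -0.0298, -0.06 and 0.0547 between groups.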
